A study of Rattus norvegicus with 20 samples.

Results

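The BCL2 family sets whether a stressed cell permeabilises its mitochondria and dies. BH3-only proteins such as Hrk, Bcl2l11 (Bim), Bid, Bad, Bik and Bmf carry a short helix that occupies the groove of pro-survival relatives or engages the pore-forming members, and Bcl2l1 (Bcl-xL) is a pro-survival relative that holds them in check. Cflar encodes c-FLIP, a relative of caspase-8 that blocks death-receptor signalling upstream of the mitochondria, where Bid links the 2 routes once it is cleaved. In beta cells these genes are studied because cytokines, ER stress and amyloid can all kill the cells through them, and most of the proteins are also controlled after transcription, which an array does not see.

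This account is about 10 genes of that system, described in the INS-1 line, insulin-producing cells derived from a rat insulinoma. The members were chosen by name and with their measured levels across the 4 treatment groups in view, so their levels and differences in these groups are given as a description and carry no test. A gene entered through its probe set with exactly 1 gene symbol, the brightest where there were several. In this way 8 of the 10 members, out of 18166 genes measured, were found: the 6 BH3-only genes Hrk, Bcl2l11, Bid, Bad, Bik and Bmf and the 2 death inhibitors Bcl2l1 and Cflar. Bbc3 and Mcl1 are not analysed here.

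Each of 20 RNA samples was hybridised to a Rat Gene 2.0 array, 5 for each of 4 words in the sample titles. Islet amyloid polypeptide (IAPP), a beta-cell hormone that aggregates into amyloid, was given as monomer at 77 μM, C4b-binding protein (C4BP), an inhibitor of complement in plasma, at 0.6 μM, and RNA was taken after 10 h. DMSO at 1% was the solvent of IAPP. The groups were C4BP (by the likely reading of the design, C4BP together with IAPP), IAPP (IAPP alone), C4BPD (by the same reading, C4BP without IAPP) and DMSO (solvent control). The sample fields give 300 ug/ml for both proteins. The cells had been carried as 5 clones for 10 passages, and whether a replicate number stands for a clone is not stated, so p-values measure the spread between these samples. The source name field names the same condition as the title on 3 of the 20 arrays, and every group here rests on the titles. Grouped by that field instead, 0 of 18166 genes passed by limma in any comparison (553 to 929 at an unadjusted p under 0.05), and in IAPP vs DMSO Hrk was at -0.0856 and Cflar at 0.131 on the log2 scale. Array medians lay between 170.01 and 182.36 intensity units. The array C4BPD 1 stood apart from its group: it was the high outlier of the 5 C4BPD arrays in 531 genes, against 33 to 92 genes for each of the others. The arrays DMSO 1, C4BP 2 and IAPP 2 were high outliers of their groups in 215, 213 and 219 genes, against at most 113 for any other array of those groups. All 7 measured beta-cell markers (Ins1, Ins2, Iapp, Nkx6-1, Mafa, Slc2a2 and Slc30a8) were above the median of all probe sets, as were glucagon (Gcg) and somatostatin (Sst) of 4 markers of other islet cells. Gcg, at a mean log2 level of 13.28, was above Ins1 (12.53) and Ins2 (12.13), and Sst was at 7.76. Of 14 measured markers of stroma, endothelium, leukocytes, acini and ducts 3 were above it, the collagens Col1a1 and Col3a1 and the elastase Cela1, at mean log2 levels of 7.78, 7.72 and 7.71 against a median of 7.48. In a bulk culture, less RNA per cell and fewer cells that make it cannot be told apart. The number of arrays limits the precision.

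The 250 bases before the annotated start of Hrk and Cflar are shown because these were the 2 members whose group means spread most widely. Both are from RefSeq, build GRCr8, on the strand of the gene: Hrk at chr12:44070562-44070811 on the minus strand and Cflar at chr9:67679299-67679548 on the plus strand. Capitals mark matches, on either strand, to 4 short motifs.
Hrk: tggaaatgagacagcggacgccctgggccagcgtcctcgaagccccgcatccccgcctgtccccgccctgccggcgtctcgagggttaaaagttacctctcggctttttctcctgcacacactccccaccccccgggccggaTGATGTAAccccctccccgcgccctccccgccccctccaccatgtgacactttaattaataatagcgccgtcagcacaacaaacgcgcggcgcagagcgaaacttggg
Cflar: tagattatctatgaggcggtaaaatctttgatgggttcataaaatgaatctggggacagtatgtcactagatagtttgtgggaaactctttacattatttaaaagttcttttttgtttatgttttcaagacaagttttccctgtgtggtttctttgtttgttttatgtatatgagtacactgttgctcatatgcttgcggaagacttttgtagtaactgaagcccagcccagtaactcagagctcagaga
The motifs searched were TGANTCA (AP-1, the Jun and Fos dimer), TGACGTCA (the cyclic AMP response element), GTAAACA (forkhead FOXO factors) and TGATGNAA (the composite element of C/EBP and ATF factors). They occur in 6.34%, 1.59%, 3.21% and 3.4% of 33469 rat promoter windows of the same 250 bases. The Hrk window held 1 match, TGATGTAA at position -108 from the start, and the Cflar window held none. Bcl2l11 held GTAAACA at position -204 and Bad its reverse complement TGTTTAC at -118, and Bid and Bmf held none. Of 4 annotated starts of Bcl2l1, 3 had a match to TGATGNAA before them, at 2 distinct positions, as a pair of the windows overlap and share 1 match. A match is a run of letters and not a known site, and no match says nothing of the factor.

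Hrk (harakiri, probe set 17678380) is a BH3-only protein known from rat neurons deprived of trophic support, where its transcription depends on the kinase JNK and on Jun. Its intensity was 446, 401, 434, 402 and 417 on the C4BP arrays, replicates 1 to 5. On the IAPP arrays it was 501, 489, 410, 463 and 455, on the C4BPD arrays 396, 346, 361, 333 and 340, and on the DMSO arrays 319, 278, 355, 308 and 310. Every IAPP array and every C4BP array lay above every DMSO array and above every C4BPD array. The order of the group means was IAPP, C4BP, C4BPD and DMSO. The neighbours IAPP and C4BP overlapped, as did C4BPD and DMSO, and C4BP and C4BPD did not.

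Averaged, Hrk stood at 464 ± 35.4 in IAPP and 314 ± 27.3 in DMSO (SD, n = 5 each), 1.48-fold higher, with a log2 difference of 0.56 ± 0.06 (SE). Of 18166 genes, 17 had a larger positive difference. In C4BP the mean was 420 ± 19.5, which is 1.34-fold over DMSO (0.42 ± 0.06 on the log2 scale) and 1.18-fold over C4BPD at 355 ± 25.2 (0.24 ± 0.06). C4BPD was 1.13-fold over DMSO (0.18 ± 0.06), and C4BP lay below IAPP by a log2 difference of -0.14 ± 0.06. Taken by replicate number, which was not accepted as a pairing, Hrk was lower in C4BP than in IAPP in 4 of 5 pairs.

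Cflar (probe set 17859528) went the other way. It measured 323, 270, 336, 326 and 278 on the C4BP arrays and 336, 319, 376, 316 and 335 on the IAPP arrays. The C4BPD arrays gave 354, 338, 405, 349 and 384, and the DMSO arrays 422, 409, 455, 411 and 421. All 15 arrays of the treated groups lay below the lowest DMSO array, C4BPD 3 by the least. From high to low the group means ran DMSO, C4BPD, IAPP and C4BP, and among the treated groups each overlapped its neighbour, while C4BP and C4BPD did not overlap.

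The mean of Cflar was 307 ± 30.2 in C4BP, 337 ± 23.7 in IAPP, 366 ± 27.6 in C4BPD and 424 ± 18.3 in DMSO (SD, n = 5 each). Against DMSO the log2 differences were -0.47 ± 0.07 for C4BP, -0.33 ± 0.07 for IAPP and -0.21 ± 0.07 for C4BPD (SE), or 0.721-fold, 0.793-fold and 0.862-fold. C4BP stood at -0.26 ± 0.07 against C4BPD and at -0.14 ± 0.07 against IAPP. By replicate number Cflar was lower in C4BP than in IAPP in 4 of 5 pairs. In that comparison Bad was higher in 5 of 5 pairs and Bid lower in 5 of 5, with overlap of the groups. Their log2 differences were small, 0.09 ± 0.07 for Bad and -0.04 ± 0.06 for Bid (SE). Bmf was higher in 4 of 5 pairs at a difference of -0.04 ± 0.08. The share of all genes at such counts is not given here, and nothing is read from them. Replicate 3 gave the highest Cflar of its group in 4 of 4 groups, a count picked after the values were seen.

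**Figure D1:**
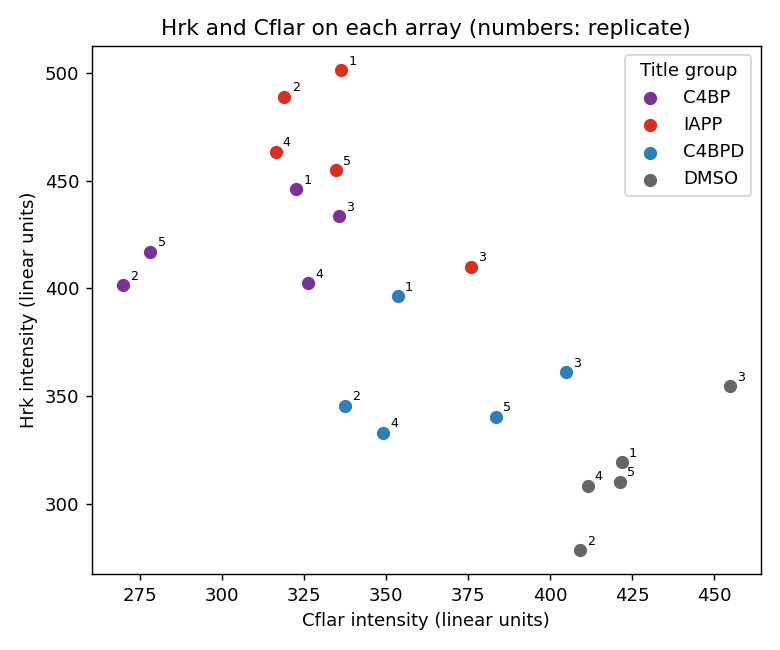
Hrk intensity (vertical axis, linear units) against Cflar intensity (horizontal axis, linear units) on each of the 20 arrays, coloured by title group and numbered by replicate; neither axis starts at 0. The DMSO arrays sit at the lower right, with Cflar at 409 or more and Hrk at 355 or less, and the IAPP arrays lie higher, with Hrk at 410 or more and Cflar at 376 or less.

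Both genes can be set against the sum of the separate treatments. For Hrk the log2 differences of IAPP and of C4BPD against DMSO add to 0.74, and C4BP stood at 0.42, so that the interaction, the difference of C4BP from C4BPD less the difference of IAPP from DMSO, was -0.32 ± 0.09 (SE). For Cflar they add to -0.55, C4BP stood at -0.47, and the interaction was 0.08 ± 0.09. In the other 6 members the interaction lay between -0.12 ± 0.11 in Bmf and 0.17 ± 0.09 in Bad. Without C4BPD 1 it was -0.03 ± 0.08 in Bmf, 0.22 ± 0.09 in Bad and -0.28 ± 0.09 in Hrk.

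The other BH3-only genes differed little. Bcl2l11, which encodes Bim, a strong binder of all pro-survival relatives, gave 556, 535, 648, 555 and 522 on the C4BP arrays and 586, 585, 636, 601 and 610 on the IAPP arrays. On the C4BPD arrays it gave 652, 575, 581, 571 and 635, and on the DMSO arrays 598, 592, 572, 650 and 622. The means of IAPP, C4BPD and DMSO were 603, 603 and 607, and C4BP, at 563 ± 49.5, was the lowest, with replicate 3 at 648 apart from its other 4 arrays. Those 4 lay below every array of the other groups, so the overlap came from C4BP 3 alone. The log2 difference of C4BP from DMSO was -0.11 ± 0.06 and that of IAPP from DMSO -0.01 ± 0.06 (SE).

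Bid, the BH3-only protein that caspase-8 cleaves, averaged 387 ± 33.2 in C4BP, 398 ± 24.7 in IAPP, 363 ± 30.6 in C4BPD and 386 ± 17.1 in DMSO (SD, n = 5 each). Its arrays ran from 337 to 434 and all 4 groups overlapped. Bad, which growth factor signalling silences by phosphorylation, averaged 896 ± 60.5 in C4BP, 844 ± 38.2 in IAPP, 831 ± 82.6 in C4BPD and 881 ± 72.2 in DMSO, again with overlap of all groups. Bik, a BH3-only protein of the ER membrane, lay between 122 and 178 on the 20 arrays. Bmf, which is tied to the cytoskeleton in unstressed cells, lay between 115 and 179, its highest value being C4BPD 1. The mean levels of Bik and Bmf were under the median of all probe sets, 7.48 on the log2 scale, and they were not shown to be above background.

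Bcl2l1 gave 440, 379, 409, 351 and 351 on the C4BP arrays and 389, 399, 377, 377 and 375 on the IAPP arrays. The C4BPD arrays gave 514, 402, 417, 395 and 406, and the DMSO arrays 450, 385, 407, 399 and 425. The groups overlapped, and C4BPD 1 was above every other array. The log2 difference of IAPP from DMSO was -0.11 ± 0.07 (SE). That of C4BPD from DMSO was 0.04 ± 0.07, and -0.03 ± 0.06 without C4BPD 1. That of C4BP from C4BPD was -0.14 ± 0.07, and -0.07 ± 0.06 without C4BPD 1. For Bmf the difference of C4BPD from DMSO was 0.09 ± 0.08, and -0.01 ± 0.06 without that array, and that of C4BP from C4BPD was -0.12 ± 0.08, and -0.02 ± 0.06 without it.

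**Figure D2:**
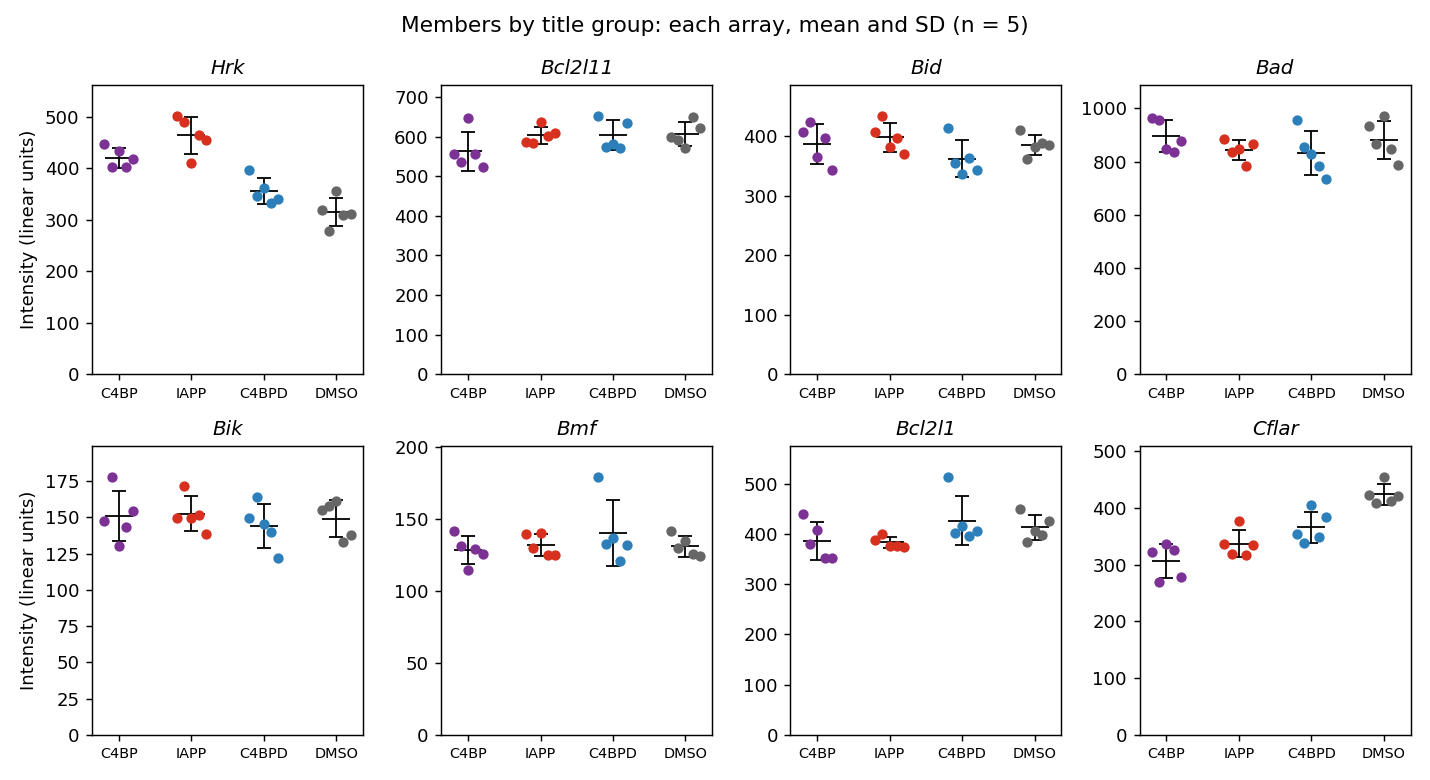
Intensity (linear units, axes from 0) of the 8 measured members in the 4 title groups; points are single arrays in replicate order, bars the mean and SD (n = 5). Hrk is higher in IAPP (464 ± 35.4) and C4BP (420 ± 19.5) than in DMSO (314 ± 27.3), Cflar is lower in all 3 treated groups than in DMSO, and the groups of the other members overlap.

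Across the 5 pairwise comparisons the 6 members other than Hrk and Cflar gave 30 log2 differences, which ran from -0.14 to 0.11 with SEs of 0.06 to 0.08, and 0 of the 30 were without overlap of the groups. For Bcl2l11 the overlap of C4BP with each other group came from C4BP 3 alone. Without C4BPD 1 the 30 ran from -0.14 (Bid, C4BPD vs DMSO) to 0.16 (Bad, C4BP vs C4BPD). With any 1 of the 20 arrays left out they reached -0.19 (Bcl2l1, C4BP vs C4BPD). With Hrk and Cflar included, 2 of 8 members passed limma's adjusted p of 0.05 in IAPP vs DMSO, where 3.38% of all genes did. The same 2, Hrk and Cflar, did not overlap, against 4.83% of all genes. In C4BP vs DMSO, 2 of 8 passed (background 5.96%) and 2 did not overlap (6.13%). In C4BPD vs DMSO, 0 of 8 passed by limma (background 1.93%), and 1, Cflar, did not overlap (3.82%). At an unadjusted p under 0.05 were 2 members and 2208 of all 18166 genes. In C4BP vs IAPP, 0 of 8 passed by limma (0.606%), and 0 were without overlap (2.38%). There 1 member and 1440 of all 18166 genes had an unadjusted p under 0.05. In C4BP vs C4BPD, 2 of 8 passed (2.37%) and 2 did not overlap (3.73%). In the interaction 0 of 8 passed by limma (0.0495%), and 1 had an unadjusted p under 0.05, as did 688 of all 18166 genes. As the members were chosen from these contrasts, the counts describe them and nothing is read from them. In C4BP vs C4BPD the count of 2 held without DMSO 3 or IAPP 3 alone. It was 1 without C4BP 1, 3 or 4, C4BPD 1 or 2, DMSO 1 or 2, or IAPP 1, 2 or 4, and 0 without C4BP 2 or 5, C4BPD 3, 4 or 5, DMSO 4 or 5, or IAPP 5. It was also 0 with arrays centred on their median.

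**Figure D3:**
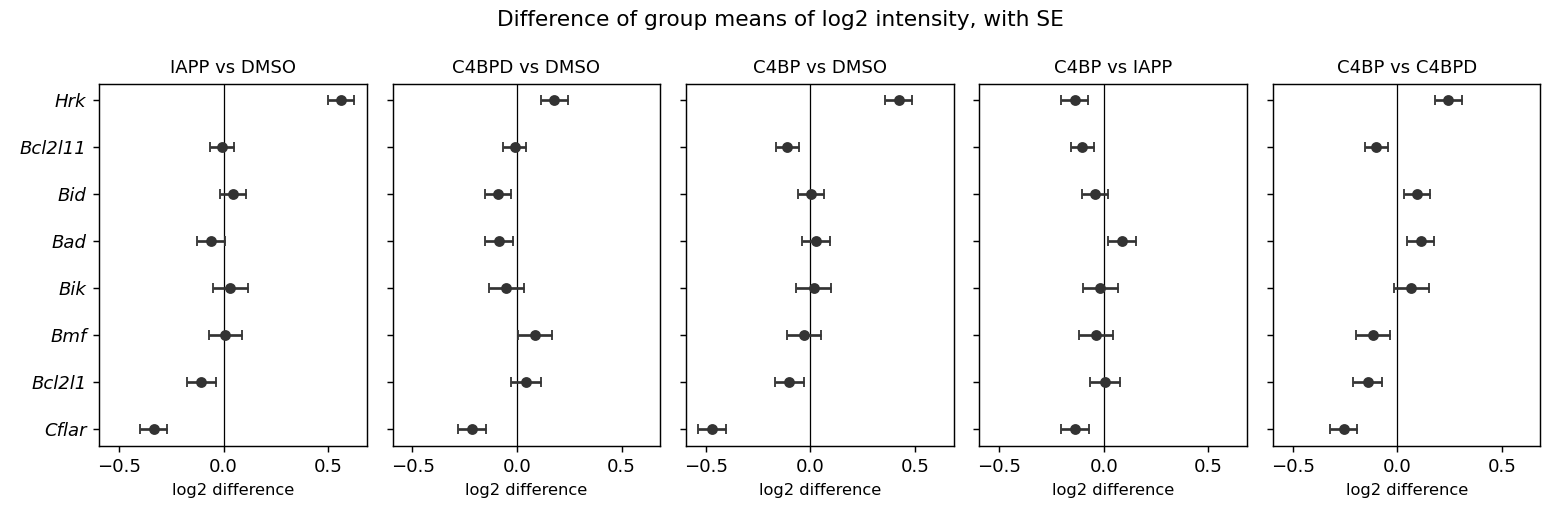
Difference of group means on the log2 scale (horizontal axis; first-named group minus second) for the 8 measured members (vertical axis) in 5 comparisons; bars are SE of the fit across 20 arrays. Hrk is at 0.56, 0.18 and 0.42 and Cflar at -0.33, -0.21 and -0.47 in the 3 comparisons with DMSO, which share the DMSO arrays, and all other members lie between -0.14 and 0.11.

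As a group the members had no common direction. Their median log2 difference was 0.00 in IAPP vs DMSO, -0.03 in C4BPD vs DMSO, -0.01 in C4BP vs DMSO, -0.04 in C4BP vs IAPP and -0.02 in C4BP vs C4BPD. Over all 18166 genes the medians were 0.00, -0.01, 0.00, 0.00 and 0.01. Over the 20 arrays Hrk and Cflar had r = -0.67 (rho = -0.74) as a description of arrays that fall into 4 treatment groups, and r = 0.09 between their deviations from the group means. The deviations of Bad and Bmf had r = 0.75, and those of Hrk and Bcl2l1 r = 0.63, over arrays that share their normalization. Without C4BPD 1, the highest C4BPD array for these 4 genes, they were 0.64 and 0.51 over 19 arrays.

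By the same measure, the genes whose log2 levels over the 20 arrays were most like those of Hrk were Slc6a9, a glycine transporter (r = 0.92), Syt11, a synaptotagmin (0.91), Rragd, a GTPase that signals amino acids to mTORC1 (0.91), Uap1l1 (0.90) and Dusp16, a phosphatase of JNK and p38 kinases (0.90). Within groups, deviations of these 5 from their means had r with Hrk of 0.30 (Uap1l1) to 0.62 (Rragd). Most like Cflar were Ero1b, the ER oxidase of pancreatic islets (0.97), Car5b, a mitochondrial carbonic anhydrase (0.94), Derl3, of ER-associated degradation (0.93), Mpv17l (0.93) and Syt10, a synaptotagmin (0.92). For Ero1b r between the deviations was 0.91, and for the other 4 it was 0.63 to 0.76. Ero1b stood at -0.36 in C4BP, -0.23 in IAPP and -0.13 in C4BPD against DMSO on the log2 scale, each smaller in size than for Cflar. Derl3, at -0.98, -0.71 and -0.53 in the same order, and Syt10, at -0.53, -0.40 and -0.22, were each larger in size than Cflar. Car5b was larger in size than Cflar except in IAPP, and Mpv17l except in C4BPD.

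Around the members, 7 lists of 83 genes of the wider death pathway were followed, of which 73 genes were measured, 16 of them under the median of all probe sets. They hold other BCL2-fold proteins, other BH3-containing genes, death receptors and adaptors, caspases with the apoptosome, caspase inhibitors, upstream regulators of BH3-only genes, and proteins that control turnover or phosphorylation of family members. The lists were drawn up by function with earlier results of these data known, among them the changes of Jun, Atf3, Ddit3 and Trib3. Adjusted p-values printed for these 4 genes describe the fit over all genes and are no independent test. Without these 4 genes, 69 were left for the counts past the threshold given next. Of the 69, 4 passed in IAPP vs DMSO (limma, 3.38% of all genes) and 7 in C4BP vs DMSO (5.96%). The count was 1 in C4BPD vs DMSO (1.93%), 3 in C4BP vs C4BPD (2.37%), 0 in C4BP vs IAPP (0.606%) and 0 in the interaction (0.0495%). In IAPP vs DMSO, 8 of 73 passed (limma, 3.38% of all genes), 6 higher and 2 lower, with a median difference of 0.00. Upstream regulators gave 4 of these, the same 4 genes, of 14 in their list: Jun (1.55 on the log2 scale, limma adjusted p = 1.23e-08), Trib3 (1.34), Atf3 (1.09) and the stress factor Ddit3 (0.46, adjusted p = 0.00118). Jun averaged 756 ± 72 in C4BP, 965 ± 183 in IAPP, 378 ± 24.5 in C4BPD and 328 ± 43.9 in DMSO (SD, n = 5 each), and was the gene with the largest positive difference in IAPP vs DMSO.

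Among caspases and the apoptosome 1 of 15 passed in IAPP vs DMSO: Casp4, an inflammatory caspase, rose to 70.3 ± 4.29 in IAPP, against 54.1 ± 5.05 in DMSO, 1.3-fold (limma adjusted p = 0.000811), at a level not shown to be above background. Of 18 death receptors and adaptors 1 passed, Tradd, the adaptor of the TNF receptor, which fell to 140.5 ± 8.45 in IAPP against 165 ± 8.87 in DMSO (-0.24, limma adjusted p = 0.0237). Bcl2l14, a BCL2-fold protein, rose by 0.21 (adjusted p = 0.0285), 1 of 9 in its list, and Pim2, a kinase that phosphorylates Bad, fell by 0.31 on the log2 scale (adjusted p = 0.0195), 1 of 10. None of 4 caspase inhibitors and none of 3 other BH3-containing genes passed by limma. At an unadjusted p under 0.05 were 0 and 2 of them, and 2235 of all 18166 genes. The BH3-containing Bnip3l, of mitophagy, was at -0.15 (limma adjusted p = 0.0607). The count of 8 was 5 without DMSO 1. Tradd lost its call without DMSO 1 or 5 or IAPP 1 or 3 (limma adjusted p up to 0.0751), Pim2 without DMSO 1 or IAPP 2 or 4 (up to 0.0693), and Bcl2l14 without DMSO 1, 2 or 3 or IAPP 1, 3 or 4 (up to 0.0941).

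In C4BP vs DMSO, 9 of 73 passed (limma, 5.96% of all genes), 7 higher and 2 lower. Jun (1.21), Trib3 (1.24) and Foxo3, a forkhead factor that drives Bcl2l11 in other cells (0.25, limma adjusted p = 0.00815), were the 3 of 14 upstream regulators that rose. Bok, a pore-forming BCL2 relative, rose to 567 ± 19.3 in C4BP against 491 ± 13.3 in DMSO (0.21, limma adjusted p = 0.00831), with no overlap, and Bcl2l14 rose by 0.24. Executioner caspase Casp6 rose by 0.23 (adjusted p = 0.0152) and Casp4 by 0.22 (0.0395), while Dffb, the nuclease that caspases release, fell by 0.16 on the log2 scale (0.0237), 2 higher and 1 lower of 15. Tradd fell by 0.27 (limma adjusted p = 0.00531), the other lower gene. Casp4 lost this call without any 1 of the 5 C4BP arrays or of DMSO 1, 3, 4 and 5 (up to 0.123), and Dffb without C4BP 5 or DMSO 2, 4 or 5 (up to 0.0711). With centred arrays Bok was at adjusted p = 0.0512 and Casp4 at 0.0711.

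Without IAPP the wider pathway gave 2 of 73 in C4BPD vs DMSO (limma, 1.93% of all genes). Trib3, a pseudokinase, rose 1.86-fold to 482 ± 55.1 in C4BPD against 259 ± 36.5 in DMSO, and Dffb fell to 862 ± 28.4 against 981 ± 43.7 (-0.19, limma adjusted p = 0.0197). Jun was at 0.21 (adjusted p = 0.436) and Ddit3 at 0.01. The Dffb call was lost without C4BPD 2 or 3 or DMSO 2 or 4 (limma adjusted p up to 0.064), so the count was 1 without C4BPD 2, C4BPD 3 or DMSO 4.

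In the presence of C4BP, the comparison C4BP vs C4BPD gave 4 of 73 (limma, 2.37% of all genes), 2 higher and 2 lower. Jun rose 1.99-fold (limma adjusted p = 8.71e-06) and Bok by 0.21 (0.0128). The pro-survival gene Bcl2 fell to 1890 ± 111 in C4BP against 2154 ± 109 in C4BPD (-0.19, adjusted p = 0.0496), and Bnip3l fell by 0.17 on the log2 scale (0.0354). The Bcl2 call was lost in 15 of 20 fits that left out 1 array (up to 0.138) and the Bnip3l call in 7 (up to 0.109). Bok lost its call without C4BPD 5 (0.0502). The count was 1 without C4BPD 5, 2 without C4BP 1, 2 or 5 or C4BPD 3, and 1, Jun, with centred arrays.

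Between C4BP and IAPP, 1 of 73 passed (limma, 0.606% of all genes): Atf3 averaged 333 ± 20.6 in C4BP and 548 ± 154 in IAPP (-0.68, limma adjusted p = 0.0179), and 0 passed without IAPP 2 (0.0653), 2 without DMSO 1 or IAPP 1. Jun was at -0.34 (adjusted p = 0.214) and Ddit3 at -0.29 (0.102). In the interaction 1 of 73 passed (limma, 0.0495% of all genes), Trib3 at -0.997 (adjusted p = 0.0221), a call lost without C4BP 3 or 4, C4BPD 2, 3 or 5, DMSO 2 or IAPP 2 (up to 0.0595). Casp4 was at -0.39 (0.19) there.

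**Figure D4:**
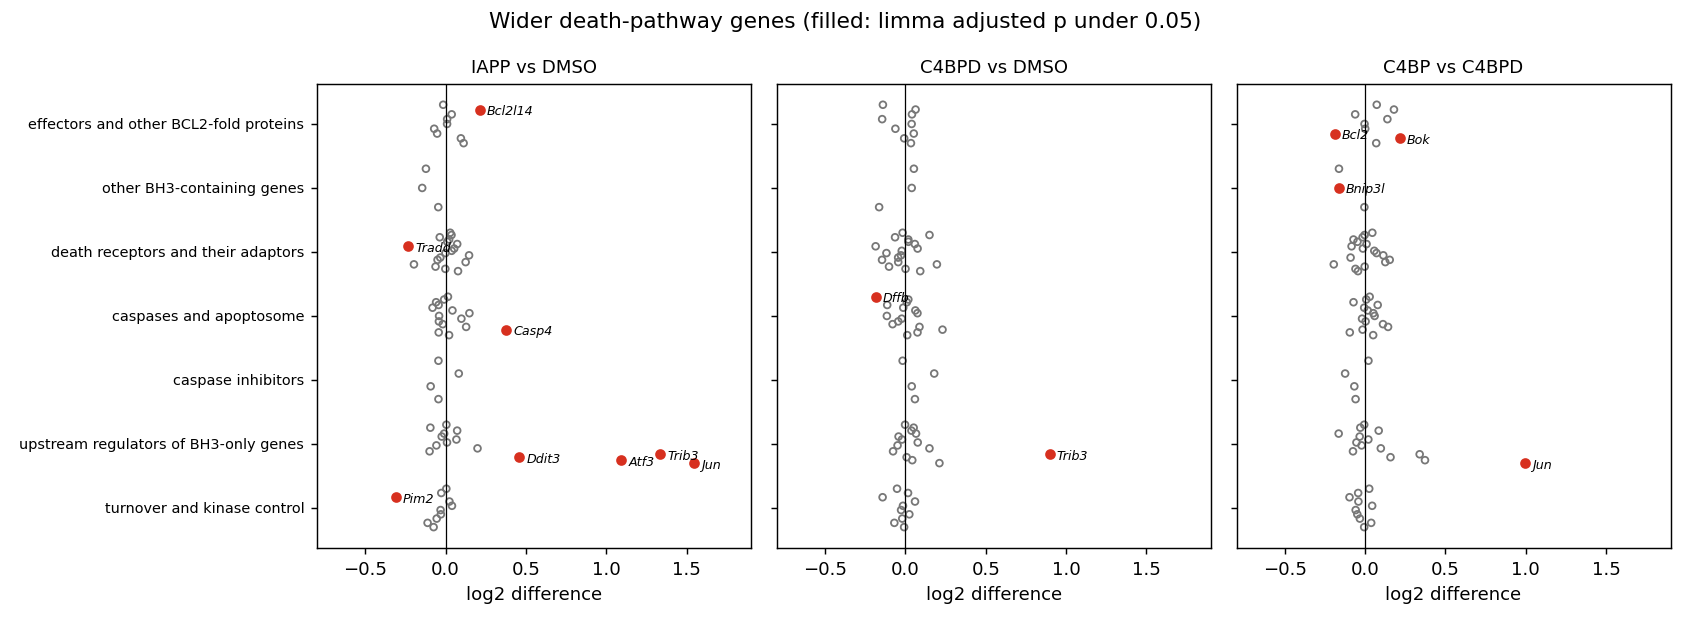
Difference of group means on the log2 scale (horizontal axis; first-named group minus second) of the 73 measured genes of the wider pathway, by list (vertical axis), in 3 comparisons; filled and named points have a limma adjusted p under 0.05. In IAPP vs DMSO 8 points are filled, 4 of them upstream regulators at 0.46 to 1.55, in C4BPD vs DMSO 2 and in C4BP vs C4BPD 4.

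Markers were followed beside these genes. Of the 7 beta-cell markers, 2 passed in IAPP vs DMSO (Mafa at -0.26 and Slc2a2 at -0.11), where 3.38% of all genes did. In C4BP vs DMSO 3 passed (these at -0.25 and -0.14 and Slc30a8 at -0.17), against 5.96%. In C4BP vs C4BPD 1 passed (Slc2a2 at -0.12), against 2.37%. The summed intensity of the 7 ran from 36917 to 40806 in C4BP, 37653 to 40272 in IAPP, 39618 to 43825 in C4BPD and 40374 to 43793 in DMSO. Among 4 markers of other islet cells Gcg was at -0.13 in IAPP vs DMSO (limma adjusted p = 0.0195). None of 14 markers of the remaining cell types passed in any comparison by limma. Over all genes 0.0495% to 5.96% passed, so 0 of 14 says little, and 3 of the 14 were above the median of all probe sets. The part of the marker shifts in the levels of Hrk and Cflar was not tested.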

How the data were processed

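Expression was measured on Rat Gene 2.0 arrays. The deposited values are intensities on a linear scale, 1 per probe set and array, normalized and summarized by the authors. The scale was read from the values (4.73 to 18573.71), and the submitters' processing notes name Affymetrix Expression Console, without version or algorithm. Gene symbols came from GEO's platform annotation: 190 of 36685 probe sets were controls, 18511 carried 1 symbol and 575 several, and the brightest probe set stood for each of 291 genes with more than 1.

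The log2 of the deposited intensity was taken with no further scaling or filter. One model with 4 group means was fitted to 20 arrays and 18166 genes by lmFit and eBayes of limma 3.58.1 under R 4.3.3 (two-sided, residual degrees of freedom 16), with p-values adjusted by Benjamini-Hochberg over all genes and a threshold of 0.05. It was tested on simulated data with independent noise for each gene and array. Those data held no outlying array and no effect shared by a replicate number, so the test does not cover these. A fold is 2 to the power of the log2 difference, whereas levels given per group average the intensities themselves. Members and lists were chosen with earlier results of these data known.

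All 8 measured members are named. Of each pathway list the rule named, per comparison, up to 4 genes past the threshold by smallest p, or up to 2 where none passed, and the text gives a selection. Likeness genes are the 5 with the highest Pearson r for each of the 2 members whose group means spread most. Genes of the fixed lists without a probe set of 1 symbol are not analysed here. The replicate number was checked as a pairing by correlating deviations from group means. A pairing was accepted only where all 5 pairs of a comparison exceeded 0.1. In each comparison 2 to 4 did, and the block is an alternative. Alternatives were the block, median centring, quantile normalization, omission of dim genes, probe set means, fits of the compared groups alone, array weights, groups from the source name field and omission of each array. Python 3.11.15 with matplotlib 3.10.9 made the figures.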

Additional observations from a re-analysis of the deposited data

Results flagged for a closer look

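Among 22 members and called pathway genes, 88 sets of 5 arrays were screened for an array far from the others of its group (gap over range above 0.71 on the log2 scale), and 6 were found. On the linear scale 8 were found, these 6 with Bcl2l11 on C4BP 3 and Bmf on C4BPD 1. Chance alone flags about 1 in 20 such sets, and over all genes 5.09% (C4BP), 5.47% (IAPP), 8.1% (C4BPD) and 6.49% (DMSO) were found on the log2 scale. Bcl2l1 on C4BPD 1 was at 514.03, the other 4 arrays at 395 to 417. Cflar on DMSO 3 was at 454.77, the others at 409 to 422. Bcl2 on DMSO 1 was at 2279.2, the others at 2012 to 2038. Casp6 on IAPP 5 was at 488.43, the others at 406 to 428. Foxo3 was low on IAPP 3 (1179.7, the others at 1278 to 1316) and on DMSO 3 (991.89, the others at 1119 to 1156).

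For Trib3 the log2 interaction was -0.997 (limma adjusted p = 0.0221), under the likely reading of the titles. Its means were 607 ± 35.6 in C4BP, 661 ± 145 in IAPP, 482 ± 55.1 in C4BPD and 259 ± 36.5 in DMSO (SD, n = 5 each). Trib3 was listed with its changes in these data known. The call was lost in 7 of 20 fits that left out 1 array (limma adjusted p up to 0.0595).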

How the results depend on the processing

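Under the alternatives that keep the title groups, those that omit an array included, the Hrk and Cflar differences moved by less than the spread between replicates, in 5 comparisons and the interaction. Where 1 array was left out, Hrk ran from 0.52 to 0.61 (IAPP vs DMSO), 0.14 to 0.22 (C4BPD vs DMSO), 0.38 to 0.47 (C4BP vs DMSO), -0.18 to -0.11 (C4BP vs IAPP), 0.22 to 0.28 (C4BP vs C4BPD) and -0.36 to -0.28 (interaction). Cflar ran from -0.37 to -0.31, -0.25 to -0.19, -0.51 to -0.43, -0.17 to -0.09, -0.29 to -0.21 and 0.04 to 0.12 in the same order. Counts of members were 2 in every such fit of IAPP vs DMSO and C4BP vs DMSO, 0 in C4BPD vs DMSO, C4BP vs IAPP and the interaction, and 0 to 2 in C4BP vs C4BPD. Counts of pathway genes were 5 to 11 (IAPP vs DMSO), 1 to 3 (C4BPD vs DMSO), 7 to 11 (C4BP vs DMSO), 0 to 2 (C4BP vs IAPP), 1 to 4 (C4BP vs C4BPD) and 0 to 1 (interaction).

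With the replicate number as a block, pathway counts were 14 (IAPP vs DMSO), 7 (C4BPD vs DMSO), 14 (C4BP vs DMSO), 4 (C4BP vs IAPP) and 7 (C4BP vs C4BPD), against 8, 2, 9, 1 and 4. Ddit3 was among those of C4BP vs IAPP, and 1 member, Cflar, passed in C4BPD vs DMSO, against 0. Over all genes the block gave 1133, 797, 1884, 352 and 958, against 614, 351, 1082, 110 and 431. In C4BP vs C4BPD the member count was 1 with array weights or quantile normalization and 0 with centred arrays or the compared groups alone; the pathway count was 1 with centred arrays and 2 with the compared groups alone. In C4BPD vs DMSO the pathway count was 4 with array weights and 1 with the compared groups alone, and in C4BP vs IAPP 0, 0, and 3 with dim genes left out. The causes were not tested.

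Grouped by the source name field, 0 of 18166 genes passed by limma in any comparison (553 to 929 at an unadjusted p under 0.05), and all member and pathway counts were 0. Hrk was then at -0.0856 (IAPP vs DMSO), -0.0244 (C4BPD vs DMSO), -0.0586 (C4BP vs DMSO), 0.0271 (C4BP vs IAPP), -0.0342 (C4BP vs C4BPD) and 0.0515 (interaction), and Cflar at 0.131, 0.0279, 0.108, -0.0222, 0.0804 and -0.0501. Signs also turned in IAPP vs DMSO for Bcl2l14 (-0.0156), Tradd (0.0579), Jun (-0.0600), Trib3 (-0.0851) and Pim2 (0.0409). They turned in C4BP vs DMSO for Bcl2l14 (-0.0183), Bok (-0.135), Tradd (0.103), Casp6 (-0.120), Dffb (0.123), Casp4 (-0.0230), Jun (-0.0669), Trib3 (-0.324) and Foxo3 (-0.0194). They turned for Dffb in C4BPD vs DMSO (0.114), Atf3 in C4BP vs IAPP (0.148), and Bok (-0.0497) and Jun (-0.32) in C4BP vs C4BPD.

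The level of Bik, Bmf, Casp4 and Tradd, under the median of all probe sets, limits what their differences show.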

Other observations

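Replicate 3 gave the highest Cflar of its group in 4 of 4 title groups. Replicate 1 gave the highest Bcl2l1, Hrk, Bad and Bmf in 3 of 4 each, and replicate 2 the highest Bik in 3 of 4. These were chosen after their values were seen, and the share of all genes with such counts is not given here.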
